A study of Homo sapiens with 9 samples.

Results

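Leucine, isoleucine and valine, the branched-chain amino acids, share the opening steps of their breakdown. An aminotransferase moves the amino group to 2-oxoglutarate, which yields glutamate and a branched-chain 2-oxoacid, and a mitochondrial dehydrogenase complex then commits the 2-oxoacid to oxidation. BCAT1 is the cytosolic and BCAT2 the mitochondrial aminotransferase, and BCAT1 is known for its high expression in many tumors, those of the lung included. The genes described here are BCAT1, BCAT2, BCKDHA, BCKDHB, DBT and BCKDK of these shared steps, together with IVD, MCCC1 and MCCC2 of the leucine branch. They are 9 of the 63187 genes in the count table, found by their Ensembl identifiers. BCAT1 was chosen on its low level in the libraries labelled EC in earlier results of these data, so its values are given as a description with no test, and the other 8 genes were named for their place in the pathway.

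The data are RNA-seq counts from BEAS-2B, an immortalized human bronchial epithelial cell line grown in serum-containing medium. Cells either stayed untreated (control) or spent 24 h in medium with 2% (v/v) aerosol condensate, made either from the carrier propylene glycol and vegetable glycerin (PG/VG) or from a liquid that also holds 18 mg/mL nicotine and a Virginia tobacco flavor (EC). Each condition has 3 libraries, with replicate numbers 2, 3 and 4 that the labels also give as the batch. A single cell line was used, so the replicates do not cover differences between people.

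The libraries held 16168260 to 24917838 counts each. Libraries of batch 4 stood apart from the others, with a chi-square per gene of 37.7 to 53.9 against replicates of the same condition, while batches 2 and 3 gave 3.88 to 12.3. Of 8 epithelial markers, KRT7, KRT8 and KRT18 made up most of the signal, the airway basal markers KRT5 and TP63 were at or near 0, and EPCAM and CDH1 were under 2 CPM, a unit in which read counts are scaled to a common library size. The summed level of these 8 markers was lower in EC, at 1460 to 2287 CPM, than in PG/VG (1721 to 2737) and the control (1776 to 2844), with overlapping ranges. The 4 mesenchymal markers VIM, CDH2, FN1 and COL1A1 summed to 3531 to 5401 CPM in EC, 4629 to 6671 in PG/VG and 5026 to 6971 in the control. In EC vs. control 3 of 6 tested epithelial markers fell (edgeR), KRT7 with a log2 fold change of −0.45, KRT8 with −0.25 and KRT18 with −0.46, while EPCAM at 0.57, CDH1 at 0.36 and KRT19 at 0.18 were not called. Of the 4 mesenchymal markers FN1 (−0.58) and CDH2 (−0.25) fell, and VIM (−0.22) and COL1A1 (0.17) were not called, where 13.5% of all genes tested were called. The immune marker PTPRC was at most 0.0858 CPM, and the endothelial markers PECAM1 and CDH5 summed to at most 7.49 CPM. In such bulk RNA, fewer cells of a kind and less RNA per cell cannot be told apart, and the part of these shifts in the results below was not tested.

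BCAT1 (ENSG00000060982) lies on the minus strand of chromosome 12, at 24810024-24949101 of GRCh38. The level in the 3 control libraries was 339.7, 326.8 and 116.4 CPM in batches 2, 3 and 4. In PG/VG it was 284.5, 269.3 and 112.7 CPM, and in EC 217.8, 237.1 and 74.6 CPM. Within every batch the order was therefore control, then PG/VG, then EC, although the 3 conditions overlap when the batches are pooled because all batch 4 values are low. The means were 261.0 ± 125.4, 222.2 ± 95.1 and 176.5 ± 88.7 CPM (SD, n = 3 each), and most of this spread lies between batches. Relative to batches 2 and 3 of the same condition, batch 4 held 0.349 times the BCAT1 level in the control, 0.407 times in PG/VG and 0.328 times in EC.

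**Figure D1:**
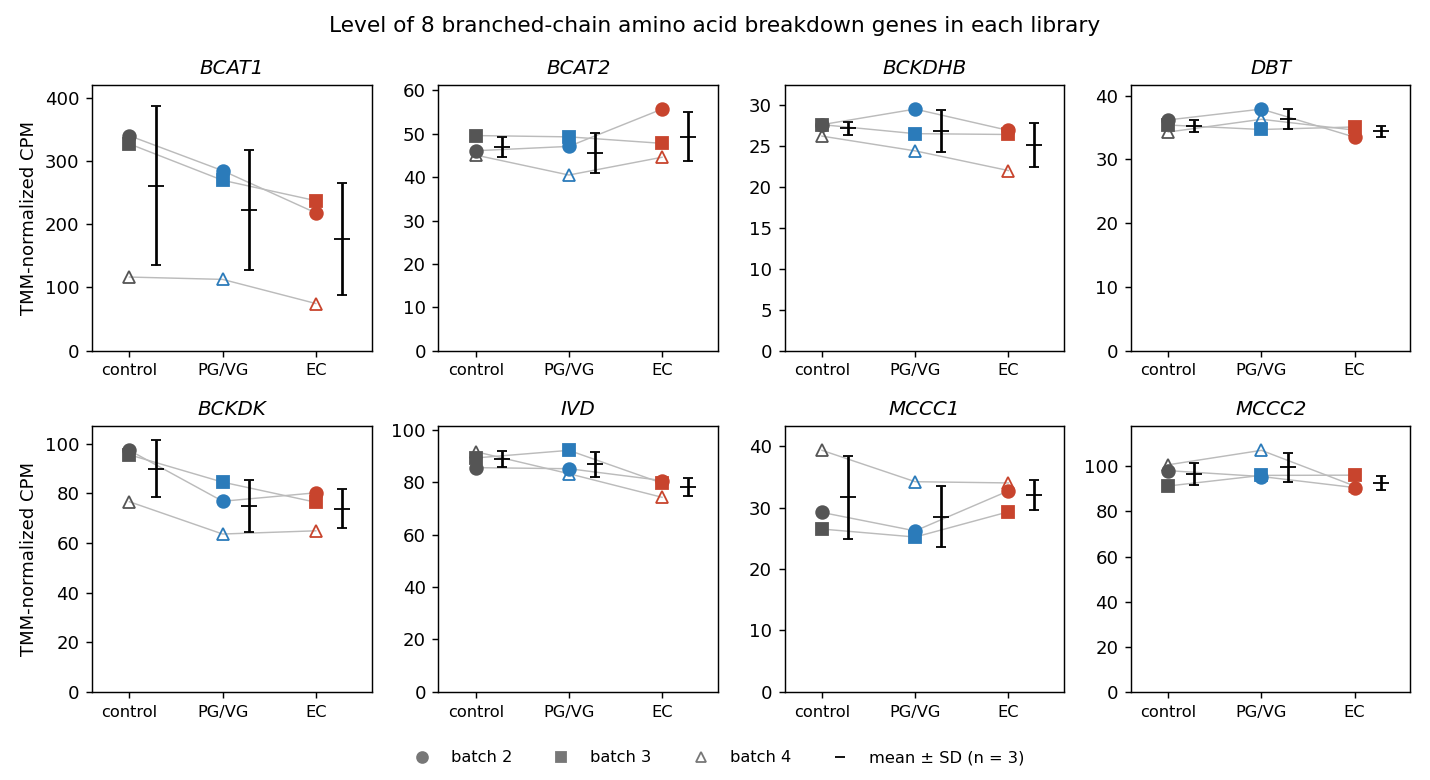
TMM-normalized CPM (vertical axis, from 0) of the 8 genes with enough counts in each of the 9 libraries, by condition. Symbols mark the batch, gray lines join libraries of one batch and bars give the mean ± SD of 3 replicates; BCAT1 descends from control to EC in every batch, from 339.7 to 217.8 CPM in batch 2, while the libraries of BCAT2 and DBT overlap across conditions.

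The fold change (LFC) is a log2 ratio fitted over the 9 libraries with batch as a covariate, and its standard error (SE) is approximate. For BCAT1 the LFC was −0.58 in EC vs. control, −0.19 for PG/VG against control and −0.38 in EC vs. PG/VG. These values correspond to levels 33.0%, 12.6% and 23.4% lower. By batch, the log2 ratio of EC to control was −0.64, −0.46 and −0.64 in batches 2, 3 and 4, that of PG/VG to control −0.26, −0.28 and −0.047, and that of EC to PG/VG −0.39, −0.18 and −0.59. The difference of EC from the control was thus of similar size in all 3 batches. That of EC from PG/VG varied more, from −0.18 in batch 3 to −0.59 in batch 4, where the PG/VG library lay close to its control. Leaving out 1 library at a time gave an LFC from −0.66 to −0.53 in EC vs. control and from −0.47 to −0.30 in EC vs. PG/VG. In PG/VG vs. control the same fits ranged from −0.29 to −0.12, with the smallest size without PG/VG replicate 3. Without batch 4 the 3 values were −0.57, −0.28 and −0.28. BCAT1 was chosen on the EC level in these same libraries. Its values by batch and with libraries left out therefore describe the choice and lend it no separate support.

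BCAT1 is an abundant transcript. Only 859 of the 16030 genes tested had an average level at least as high, itself included. Within those 859, 3 genes including BCAT1 had an LFC at or below its own in EC vs. control, and 422 of all 16030 did. As the EC values chose this gene, its rank describes the choice and supports nothing further.

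BCAT2 (ENSG00000105552, minus strand of chromosome 19, 48795062-48811029) catalyzes the same reaction inside mitochondria. Its level was 46.1, 49.6 and 45.1 CPM (control), 47.1, 49.3 and 40.5 CPM (PG/VG) and 55.7, 47.8 and 44.6 CPM (EC), in batches 2, 3 and 4. The conditions overlap and no order recurs across batches. The LFC in EC vs. control was 0.070 (SE 0.082, 95% interval −0.10 to 0.24, edgeR adjusted p = 0.637). In PG/VG vs. control it was −0.046 (SE 0.083, edgeR adjusted p = 0.814).

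Both aminotransferases can be set side by side per kilobase of their canonical transcript. Per kilobase, BCAT1 made up 55.4%, 52.6% and 30.3% of the summed BCAT1 and BCAT2 counts in control replicates 2, 3 and 4. The shares were 50.4%, 48.0% and 32.0% in PG/VG and 39.7%, 45.5% and 22.0% in EC. In EC the share was lower than in the control of the same batch in all 3 batches, and in PG/VG in 2 of them. The level of this share depends on the transcript length assumed: with the length of all annotated exons, the control mean was 65.9% in place of 46.1%. The EC mean moved in the same way, from 35.8% with the canonical to 55.8% with the all-exon length. It was below the control mean with either length. Lengths in use were not measured.

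Past the aminotransferases, the branched-chain 2-oxoacid dehydrogenase consists of an E1 component with an alpha (BCKDHA) and a beta (BCKDHB) subunit, an E2 core (DBT), and an E3 subunit, DLD, shared with other complexes. BCKDHA could not be assessed from these counts. It had 0 to 6 counts per library, below the minimum of 10 counts in at least 3 libraries. Of its annotated exon length 73.7% is shared with other annotated genes, among them ENSG00000255730, a read-through gene on the same strand. Only 119 of the 1742 bases of its canonical transcript are free of other genes. The authors' counting ignored reads that overlap more than 1 gene, and the read-through gene itself had no counts, so its expression cannot be read from them.

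BCKDHB (ENSG00000083123, chromosome 6, 80106647-80346270) had 27.6, 27.6 and 26.2 CPM (control), 29.5, 26.5 and 24.4 CPM (PG/VG) and 26.9, 26.4 and 22.0 CPM (EC). DBT (ENSG00000137992, chromosome 1, 100186919-100249834) had 36.2, 35.4 and 34.3 CPM (control), 37.9, 34.7 and 36.3 CPM (PG/VG) and 33.5, 35.1 and 34.6 CPM (EC). For both subunits the conditions overlapped. The LFC in EC vs. control was −0.11 for BCKDHB (SE 0.089, 95% interval −0.30 to 0.069, edgeR adjusted p = 0.438) and −0.037 for DBT (SE 0.081, 95% interval −0.21 to 0.13, edgeR adjusted p = 0.817).

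BCKDK encodes the kinase that switches this complex off by phosphorylating the E1 alpha subunit. It fell in both treatments. Its level (ENSG00000103507, chromosome 16, 31106107-31112791) was 97.3, 95.5 and 76.6 CPM (control), 76.8, 84.5 and 63.6 CPM (PG/VG) and 80.2, 76.4 and 64.9 CPM (EC). Every treated library was below the control of its batch, by a similar amount in both treatments. The LFC was −0.28 for EC against control (SE 0.072, edgeR adjusted p = 0.0121) and −0.26 for PG/VG against control (SE 0.072, edgeR adjusted p = 0.0393). EC and PG/VG share the same controls, and the direct LFC between them was −0.018 (95% interval −0.17 to 0.13, edgeR adjusted p = 0.952).

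The calls for BCKDK depended on single libraries. In EC vs. control the adjusted p in edgeR rose to 0.0656, 0.0524 and 0.0771 without control replicate 2, control replicate 3 or EC replicate 3. In PG/VG vs. control it was 0.159, 0.138 and 0.082 without control replicates 2, 3 and 4, and 0.266 and 0.112 without PG/VG replicates 2 and 4. With no batch term it was 0.466 and 0.739 (edgeR), since the spread between batches then counts as error.

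**Figure D2:**
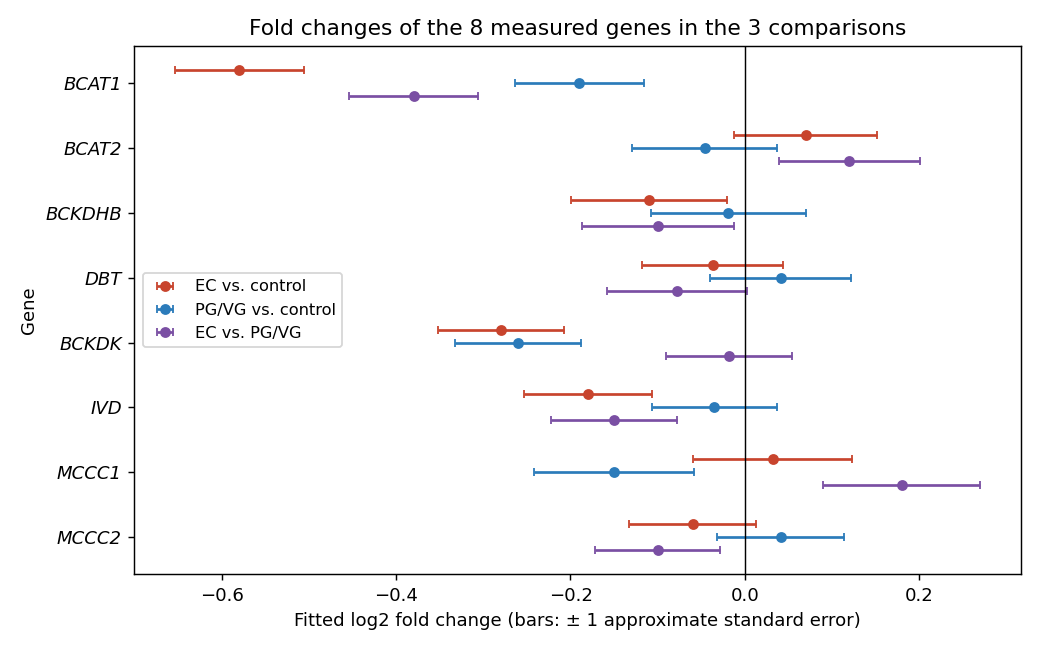
Fitted log2 fold change (horizontal axis) of the 8 genes in 3 comparisons, by color, with bars of ± 1 approximate standard error. BCAT1 at −0.58 and −0.38 lies lowest in the comparisons of EC with the control and with PG/VG, and BCKDK has nearly the same value, −0.28 and −0.26, against the control in EC and PG/VG. BCAT1 was chosen on its EC values, so its bars are no test.

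In the leucine branch, IVD oxidizes isovaleryl-CoA, and MCCC1 and MCCC2 form the biotin-dependent carboxylase that follows. IVD (ENSG00000128928, chromosome 15, 40405485-40435947) had 85.5, 89.2 and 91.6 CPM (control), 85.1, 92.1 and 83.2 CPM (PG/VG) and 80.6, 79.6 and 74.2 CPM (EC). All EC libraries lay below all control and all PG/VG libraries. The separation from the control also held for DLD, ACAT1, PCCB, PDHA1 and PDHB of the lists below. How often it holds over all genes was not counted. The IVD difference was not past the threshold, with an LFC of −0.18 in EC vs. control (SE 0.073, edgeR adjusted p = 0.0966) and −0.15 in EC vs. PG/VG (SE 0.072, edgeR adjusted p = 0.384).

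MCCC1 (ENSG00000078070, chromosome 3, 183015218-183116075) had 29.2, 26.5 and 39.3 CPM (control), 26.2, 25.2 and 34.2 CPM (PG/VG) and 32.7, 29.3 and 34.0 CPM (EC). EC was above its control in batches 2 and 3 and below it in batch 4, and the LFC was 0.032 (SE 0.091, edgeR adjusted p = 0.863). MCCC2 (ENSG00000131844, chromosome 5, 71579531-71658706) had 98.1, 91.3 and 100.7 CPM (control), 95.5, 96.0 and 107.1 CPM (PG/VG) and 90.6, 96.1 and 91.3 CPM (EC). The ranges overlapped, and the LFC in EC vs. control was −0.060 (SE 0.073, edgeR adjusted p = 0.647). In PG/VG vs. control MCCC1 was lower in 3 of 3 batches, with an LFC of −0.15 (SE 0.092, edgeR adjusted p = 0.387). In EC vs. PG/VG the LFC of MCCC1 was 0.18 (SE 0.090, edgeR adjusted p = 0.409). For MCCC2 these LFCs were 0.041 and −0.10 (edgeR adjusted p = 0.811 and 0.606). The carboxylase subunits, whose products assemble into 1 enzyme, were thus not called in any comparison.

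Setting BCAT1 aside, 1 of the 7 tested genes was called against the control in each treatment, BCKDK both times. Among all 16030 genes, 13.5% were called for EC against control, 4.54% for PG/VG against control and 0.855% for EC vs. PG/VG, where 0 of the 7 genes were called by edgeR. At an unadjusted p under 0.05, IVD alone passed in EC vs. PG/VG (edgeR, adjusted p = 0.384). A share of 1 in 7 is close to the 13.5% for all genes, so the EC count is no result about this group. For PG/VG the share is above 4.54%, but it is BCKDK alone. That call was kept in 4 of 9 fits without 1 library, so this count is no result about the group either. The median LFC of the 7 genes was −0.060 in EC and −0.035 in PG/VG, against 0.008 and 0.013 for all genes tested.

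In untreated cells the level per kilobase of canonical transcript was highest for BCKDK, at 44.1 ± 5.62 CPM per kilobase (SD, n = 3). BCAT2 followed with 30.0 ± 1.51, BCAT1 with 28.2 ± 13.5 and MCCC2 with 26.7 ± 1.35 CPM per kilobase. BCAT1 ranged from 12.6 to 36.7, so its place in this order differs between batches and its range overlaps those of BCAT2, MCCC2, IVD and MCCC1. IVD at 20.4 ± 0.703, MCCC1 at 13.3 ± 2.85, BCKDHB at 7.39 ± 0.21 and DBT at 3.28 ± 0.0904 CPM per kilobase came next. The control ranges of these 4 did not overlap, so BCKDHB and DBT were at the bottom of the order of these 8 genes in every control library. Among these 8 genes BCAT1 also had the largest batch difference. The batch 4 level of the other 7 genes was 0.789 to 1.41 times that of batches 2 and 3. A large drop in batch 4 was not particular to BCAT1. PSAT1, described below, had 1025.0, 976.1 and 278.5 CPM in control batches 2, 3 and 4.

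**Figure D3:**
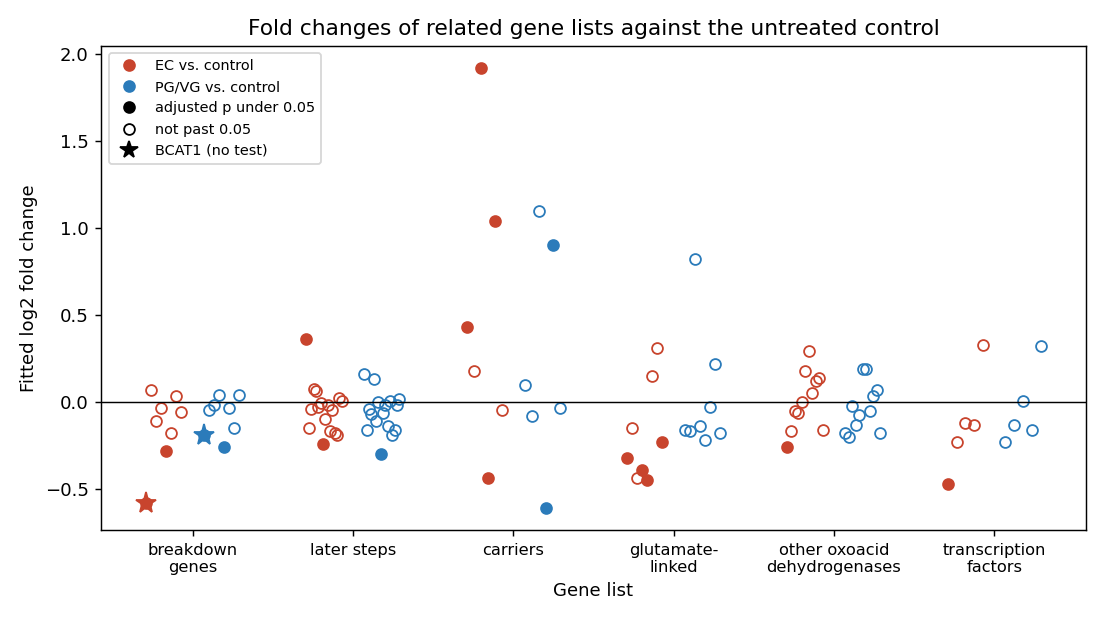
Fitted log2 fold change (vertical axis) of each tested gene against the control, for EC and PG/VG, by gene list. Filled circles are genes with an adjusted p under 0.05 and stars mark BCAT1, at −0.58 in EC, for which no test is given. The list labelled later steps is the wider pathway and also holds DLD and PPM1K of the dehydrogenase step. Most of its genes lie near 0, and the carriers spread widest, from −0.44 to 1.92 in EC.

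The wider pathway was described with 17 further enzymes and regulators, of which 16 were tested. Past the threshold, EC had 1 higher and 1 lower than control, PG/VG 0 higher and 1 lower. These are 12.5% and 6.25% of the 16 genes, near the 13.5% and 4.54% of all genes, so they are no result about the list. In EC vs. PG/VG 0 were called by edgeR, with 0 at an unadjusted p under 0.05. PPM1K, the phosphatase that reactivates the dehydrogenase and so opposes BCKDK, had 13.8, 12.3 and 15.9 CPM (control), 14.5, 12.9 and 19.8 CPM (PG/VG) and 16.1, 14.7 and 23.5 CPM (EC). It rose in EC vs. control, with an LFC of 0.36 (SE 0.105, edgeR adjusted p = 0.0256), and in PG/VG its LFC was 0.16 (SE 0.106, edgeR adjusted p = 0.419). The call was lost without control replicate 3 (adjusted p = 0.0703 in edgeR), control replicate 4 (0.192), EC replicate 3 (0.0527) or EC replicate 4 (0.163), and without batch 4 the LFC was 0.23.

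ACAT1, the thiolase that ends isoleucine breakdown and also acts on ketone bodies, fell in both treatments. Its level was 87.4, 81.2 and 93.7 CPM (control), 63.5, 67.6 and 81.7 CPM (PG/VG) and 76.6, 72.3 and 72.0 CPM (EC). All EC libraries were below all controls, and the LFC was −0.24 in EC (SE 0.080, edgeR adjusted p = 0.0482) and −0.30 in PG/VG (SE 0.081, edgeR adjusted p = 0.0319). Each call was lost in 5 of the 9 fits without 1 library, and that in EC also without batch 4 (edgeR adjusted p = 0.192). In EC these were the fits without control replicates 2, 3 or 4 or EC replicates 3 or 4 (highest adjusted p = 0.268 in edgeR). In PG/VG they were those without control replicates 2, 3 or 4 or PG/VG replicates 2 or 3 (highest adjusted p = 0.316 in edgeR).

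DLD, the shared E3 subunit, had an LFC of −0.15 in EC (SE 0.074, edgeR adjusted p = 0.181) and −0.16 in PG/VG (SE 0.074, edgeR adjusted p = 0.214). PCCA and PCCB, which form the propionyl-CoA carboxylase at the end of the isoleucine and valine branches, had LFCs of −0.18 and −0.19 with EC and −0.19 and −0.16 with PG/VG, with an adjusted p between 0.0941 and 0.294 in edgeR. None of these passed the threshold. Other annotated genes share 22.2% of the exon length of PCCB. The remaining tested genes of the list lay between −0.17 and 0.073 (EC) or between −0.14 and 0.13 (PG/VG). HMGCLL1 had too few counts to be tested.

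Branched-chain amino acids cross membranes through exchangers and facilitated carriers. Of 6 such carrier genes 4 were called in EC vs. control, 3 higher and 1 lower, where 13.5% of all genes were called. The median LFC of the 6 was 0.301. SLC7A5, the light chain of the main exchanger of large neutral amino acids, rose in EC from 1709 ± 673.1 to 2208 ± 577.5 CPM (SD, n = 3 each), with an LFC of 0.43 (SE 0.078, edgeR adjusted p = 0.000802) and a higher level in 3 of 3 batches. SLC43A2 rose and SLC43A1 fell in both treatments, with respective LFCs of 1.04 and −0.44 for EC, then 0.90 and −0.61 for PG/VG (edgeR adjusted p at most 0.00681). SLC7A8 rose in EC with an LFC of 1.92 (SE 0.444, edgeR adjusted p = 0.00577), but the control libraries held 3, 1 and 11 counts. Within the family of SLC43A1 and SLC43A2, the carriers thus moved in opposite directions. SLC43A1 lost its call in EC without control replicate 2 (edgeR adjusted p = 0.0698).

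Of 8 further enzymes that use the glutamate and 2-oxoglutarate pair as BCAT1 does, 4 fell in EC (median LFC over the 8 genes −0.276) and 0 were called in PG/VG by edgeR, beside 13.5% and 4.54% of all genes. PSAT1, of serine synthesis, had an LFC of −0.45 in EC (SE 0.064, edgeR adjusted p = 6.37e-05), and the mitochondrial alanine aminotransferase GPT2 −0.39 (SE 0.069, edgeR adjusted p = 0.000496). The cytosolic aspartate aminotransferase GOT1 had −0.32 and glutamate dehydrogenase GLUD1 −0.23 (edgeR adjusted p = 0.0118 and 0.0259). The calls of GOT1 and GLUD1 were each lost in 4 of 9 fits, among them those without control replicate 2, control replicate 3 or EC replicate 3 and, for GOT1, EC replicate 2 or, for GLUD1, EC replicate 4 (highest adjusted p = 0.11 and 0.137 in edgeR). In batch 4 the GOT1 log2 ratio was −0.0083, and without batch 4 the call of GLUD1 was lost (edgeR adjusted p = 0.073). In PG/VG the LFC of PSAT1 was −0.22 (SE 0.064, edgeR adjusted p = 0.056), and 4 of the 8 genes had an unadjusted p under 0.05. That value for PSAT1 passed the threshold in edgeR with RLE normalization (adjusted p = 0.0415), with 10 counts in every library (0.0456) and with the 2 groups alone (0.0243), and in DESeq2 (0.010) and after ComBat-Seq (2.71e-05). In EC vs. PG/VG 0 of the 8 genes were called by edgeR, with 4 at an unadjusted p under 0.05, beside 0.855% of all genes called. The direct LFC was −0.24 for PSAT1 and −0.25 for GPT2 (edgeR adjusted p = 0.0844 each). Both passed the threshold in DESeq2 (adjusted p = 0.0181 and 0.0469) and after ComBat-Seq (1.13e-05 and 0.00101).

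The pyruvate and 2-oxoglutarate dehydrogenases are built like the branched-chain complex and have kinases and phosphatases of their own. Of 11 tested genes, PDHA1 alone was called in EC vs. control (9.09% of the list), with an LFC of −0.26 (SE 0.070, edgeR adjusted p = 0.0143), and 0 were called in PG/VG by edgeR, with 3 at an unadjusted p under 0.05. The call was lost without batch 4 (edgeR adjusted p = 0.082) and without control replicates 3 or 4 or EC replicates 3 or 4, where the adjusted p reached 0.0821 (edgeR), and 19.3% of its exon length is shared with other genes. In EC vs. PG/VG 0 of the 11 genes were called by edgeR, with 0 at an unadjusted p under 0.05. There the LFC of PDHA1 was −0.089 (SE 0.070, edgeR adjusted p = 0.645).

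MYC is a transcription factor known to act on BCAT1 and to bind the letters CACGTG. It had 143.8, 147.2 and 94.2 CPM (control), 123.7, 124.2 and 80.1 CPM (PG/VG) and 111.4, 99.3 and 67.1 CPM (EC). It was lowest in EC in every batch and lower in batch 4 than in batches 2 and 3. The same holds for BCAT1, and also for PSAT1, GPT2, KRT7 and KRT18. A link between MYC and BCAT1 was not tested. MYC fell in EC vs. control, with an LFC of −0.47 (SE 0.070, edgeR adjusted p = 9.36e-05), and in PG/VG its LFC was −0.23 (SE 0.069, edgeR adjusted p = 0.0565). The latter passed the threshold in edgeR with RLE normalization (adjusted p = 0.0445), with 10 counts in every library (0.0481) and with the 2 groups alone (0.0228), and in DESeq2 (0.0283) and after ComBat-Seq (0.000935). The direct LFC of MYC in EC vs. PG/VG was −0.24 (SE 0.069, edgeR adjusted p = 0.11). It passed the threshold after ComBat-Seq followed by DESeq2 (adjusted p = 0.00157). Of the other 4 factors considered, HIF1A, EPAS1, ATF4 and KLF15, none was called in EC (edgeR adjusted p at least 0.0515).

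To show where these letters lie, windows of 300 bases from 250 before to 50 after each RefSeq start site (GRCh38.p14) were searched, and 8 of the 9 genes had a window. The motif is its own reverse complement, so a match holds on both strands. It was found in 1 of 5 windows of BCAT1, in 2 of 3 of MCCC1 and in the 1 window of MCCC2, while 7.26% of all 35116 windows hold it. The windows of BCKDHA, BCKDHB, DBT, BCKDK and IVD did not hold it. The stretches below run 5′ to 3′ on the strand of the gene, with the motif in capitals, at chr12:24949070-24949099 (minus strand), chr3:183099646-183099675 (minus strand) and chr5:71587265-71587294 (plus strand).
BCAT1: aatccagcccgcCACGTGtactcgccgccg
MCCC1: cacccccacgagCACGTGgccagactgccc
MCCC2: ggcgcgcttaggCACGTGtgtggacaggcc
The motif begins at base 15 after 1 of the BCAT1 start sites. It begins at −167 relative to 1 of those of MCCC1 and at −63 relative to that of the MCCC2 window. Neither binding nor the start sites that these cells use were measured.

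The 5 genes whose profile over the 9 libraries, centered within each batch, differed least from that of BCAT1 were DOP1B, the lncRNA ENSG00000291203, PTPRB, CCBE1 and THBS2. The root mean square difference from BCAT1 was 0.058, 0.059, 0.067, 0.068 and 0.071 on the log2(CPM + 1) scale. For DOP1B the control mean was 94.1 ± 2.27 CPM, the PG/VG mean 85.4 ± 6.12 CPM and the EC mean 64.8 ± 3.94 CPM (SD, n = 3 each). The likeness is within batches, and 0 of the 5 remained among the nearest when profiles were centered over all 9 libraries.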

How the data were processed

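RNA from 9 BEAS-2B cultures (3 conditions, 3 biological replicates each, as the study states) was sequenced by the authors. Per the labels and methods, fastp trimming and STAR alignment to GRCh38.p12 came first and, with featureCounts of Subread 2.0.4, the authors deposited raw counts per gene on exons of Ensembl release 111, ignoring multi-mapping and multi-overlapping reads. The strand setting is not given in the sources used here. The deposited counts are neither batch-adjusted nor filtered. Positions and lengths are from GENCODE 44 (GRCh38), where 62666 of 63187 identifiers matched.

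The 16030 genes that reached 10 counts in 3 or more libraries were tested in edgeR 4.0.16 (R 4.3.3) with TMM normalization and a robust quasi-likelihood fit of all libraries on condition and batch. Benjamini-Hochberg adjustment covered all genes tested, with a threshold of 0.05, below which a gene is called. The SE is the absolute LFC over the square root of the test statistic. The labels give the replicate number as the batch, which pairs the libraries. Same-numbered libraries of different conditions had correlations of 0.432 to 0.795 between their deviations from the condition means. For libraries with different numbers the correlations were −0.668 to 0.565, so the ranges overlap. The fit was also run on simulated counts with changes planted in EC, larger than most of those reported here. That run checked the code and does not give the error rate of the calls above.

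The 9 genes and the other lists, written from general knowledge, were chosen with earlier results of these data known. From those lists, marker lists aside, genes called in any comparison, DLD, PPM1K, PCCA, PCCB and MYC are named with values, as are the 5 genes nearest to BCAT1 with a mean of at least 1 CPM.

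Alternatives were no batch term, RLE or no normalization factors, other filters, DESeq2 1.42.0, ComBat-Seq (sva 3.50.0) followed by DESeq2, the compared groups alone and each library left out. Leaving out batch 4 and using the length of all exons were added after seeing the data.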

Additional observations from a re-analysis of the deposited data

Results flagged for a closer look

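SLC7A5 differed between the treatments by a direct test. Set against PG/VG, EC had an LFC of 0.33 (SE 0.078, edgeR adjusted p = 0.0439), higher in 3 of 3 batches. Against the control the LFC was 0.43 for EC and 0.10 for PG/VG. The direct call was lost without PG/VG replicate 2, 3 or 4 or EC replicate 4 (edgeR adjusted p of 0.209, 0.0879, 0.182 and 0.242) and without batch 4 (0.159, with an LFC of 0.25). BCAT1 was not tested for such a difference because it was chosen on these values.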

How the results depend on the processing

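The replicate number marks the batch, and BCAT1 in batch 4 was at 0.328 to 0.407 times its level in batches 2 and 3, so its differences were read within batches. Genes called over all genes numbered 2157 in EC vs. control, 727 for PG/VG against control and 137 in EC vs. PG/VG. With no replicate block they were 16, 1 and 1, without batch 4 they were 1216, 324 and 80, and leaving out 1 library gave 1162 to 2172, 192 to 1084 and 32 to 208. PG/VG against control had 1735 calls after ComBat-Seq and 1179 with the 2 groups alone, and EC vs. PG/VG had 658 and 318, and 309 with no filter. Among the 7 genes other than BCAT1, the single call for EC became 0 with no replicate block and 2 after ComBat-Seq (IVD joined), and that for PG/VG became 0 with no replicate block, library size only, no filter or no batch 4. Leaving out 1 library gave 0 to 1 calls in either. The 2 wider pathway calls for EC became 0 with no replicate block or without batch 4, 1 with library size only, no filter, 10 counts in every library or DESeq2, 4 after ComBat-Seq, and 0 to 2 without 1 library. The 1 for PG/VG became 0 with no replicate block and 0 to 1 without 1 library. Of the log2 fold changes of single genes, signs that turned all belonged to differences that were not called. Library size alone gave 0.023 for DBT (EC vs. control), 0.0071 for BCKDHB (PG/VG against control) and 0.016 for BCKDK (EC vs. PG/VG). Without batch 4, PG/VG against control gave 0.0082 for BCKDHB, 0.0032 for IVD and −0.00012 for MCCC2, and ComBat-Seq gave −0.0036 for PCCA in EC vs. PG/VG. Without 1 library, EC vs. control ranged from −0.025 to 0.14 for BCAT2 and from −0.05 to 0.13 for MCCC1. PG/VG against control ranged from −0.12 to 0.0033 for BCAT2, −0.074 to 0.036 for BCKDHB, −0.07 to 0.022 for IVD, −0.016 to 0.07 for MCCC2 and −0.0085 to 0.15 for SLC7A5. EC vs. PG/VG ranged from −0.057 to 0.036 for BCKDK, −0.039 to 0.11 for DLD, −0.028 to 0.15 for ACAT1 and −0.087 to 0.12 for PCCA. The cause of these changes was not tested. The lowest count of the 8 tested genes was 428, and BCKDHA, with at most 6, could not be assessed.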
